A study of Homo sapiens with 15 samples.

Results

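The miR-320 family and miR-484 are 6 of the 1619 miRNA entries in a small RNA count table of DiFi cells, an established human colorectal cancer line. They were taken by name: hsa-miR-320a-3p, hsa-miR-320b, hsa-miR-320c, hsa-miR-320d, hsa-miR-320e and hsa-miR-484. The table holds 14 libraries out of 15 labelled samples. Cell pellets, unfiltered HDM, filtered HDM, plate 1 cells, plate 2 cells and plate 3 cells each have 1 library numbered HF6 and 1 numbered HF7, and HDM media and regular media have 1 library each. HDM media without cells was not analysed here, so no background of cell-free medium was measured. All libraries carry the same tissue and cell line labels, with no genotype, treatment or time, and the abbreviations HDM and HF are not spelled out. Nothing in the labels says that HF6 and HF7 are separate cultures, so p-values cover the spread between libraries alone, which may be technical. Filtered and unfiltered HDM of the same HF number may also share a source, in which case p-values that pool them are too small.

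Most miRNAs are cut from long transcripts in the nucleus by the enzyme Drosha and then trimmed in the cytoplasm by Dicer. The precursor of miR-320a is instead transcribed directly as a short hairpin whose 5′ end carries a cap, leaves the nucleus through exportin-1 and needs Dicer but not Drosha. miR-484 is likewise known to be made without Drosha. The other members are grouped with miR-320a here by sequence, and the table itself says nothing about how any of them was processed.

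The mature sequences are shown because they set which targets a member can pair with and how well reads of the members can be told apart. Capitals mark the seed, bases 2 to 8 from the 5′ end, which directs target pairing; the sequences match RefSeq (GRCh38.p14) and are written as DNA.
hsa-miR-320b: aAAAGCTGggttgagagggcaa
hsa-miR-320c: aAAAGCTGggttgagagggt
hsa-miR-320d: aAAAGCTGggttgagagga
hsa-miR-320e: aAAGCTGGgttgagaagg
hsa-miR-484: tCAGGCTCagtcccctcccgat
miR-320a-3p has the same seed as miR-320b, miR-320c and miR-320d. These 4 entries differ from one another by 1 mismatch over their shared length, and the entries for c and d are 20 and 19 bases long against 22 for a and b. The miR-320e sequence starts 1 base later in the shared stretch, so its seed is another one, and miR-484 is unrelated to the family.

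The hairpin of MIR320B1, at chr1:116671746-116671817 on the plus strand, is shown for the place of the mature sequence, in capitals, in its 3′ arm.
MIR320B1: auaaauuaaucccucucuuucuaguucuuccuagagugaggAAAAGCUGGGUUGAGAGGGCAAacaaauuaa
The mature sequence covers bases 42 to 63 of 72. In RefSeq, 8 hairpins matched 5 of the members, and each mature sequence equalled the deposited one. The mature miR-484 lies at bases 8 to 29 of a hairpin of 79 bases, and so in the 5′ arm.

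The near identity of the miR-320 entries bears on every value below. Values of miR-320a-3p and miR-320b held fractions in 11 libraries, those of miR-320c in 12 and those of miR-320d in 13, while miR-320e and miR-484 held whole numbers in all 14. The sum over the family was within 0.1 counts of a whole number in all 14 libraries. Reads that match several family members therefore appear to have been divided among them, by a rule not given in the sources used here, and the split among a, b, c and d is less certain than their sum.

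The members come from unlinked loci (GRCh38, GENCODE release 29). hsa-miR-320a-3p lies on chromosome 8, 22244975 to 22244996 on the minus strand, in MIR320A. miR-320b has 2 loci on chromosome 1, MIR320B1 and MIR320B2, the latter in an intron of NVL at 224257049 to 224257070. Both loci of miR-320c are on chromosome 18, MIR320C1 at 21683559 to 21683578 and MIR320C2 at 24321716 to 24321735, each antisense to an intron, of ABHD3 and OSBPL1A respectively. miR-320d maps to MIR320D1 on chromosome 13, 40727828 to 40727846, and MIR320D2 on chromosome X, 140926172 to 140926190. miR-320e lies in a PRKD2 intron on chromosome 19, 46709294 to 46709311. miR-484 lies on chromosome 16, 15643301 to 15643322 on the plus strand, in MIR484 and in an untranslated exon of NDE1.

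Library totals ran from 205734 to 4896921 counts, and the HF7 cell pellet and HF7 unfiltered HDM stood apart as the shallowest, with 313382 and 205734 counts. Levels are given as CPM, counts scaled to a library total of 1000000. Intervals cover counting error only, since reads without molecular identifiers are not independent molecules. The 8 epithelial marker miRNAs (the miR-200 family, miR-192, miR-194 and miR-215) summed to between 235274 and 311882 CPM in every library. Their summed level was 235274 to 249658 CPM in HDM, 273829 to 311882 in pellets and 281778 to 307406 on plates. Of the 8, 6 were called lower in HDM than in pellets (median log2 -1.17, beside 0.05 over all tested miRNAs) and 6 lower than on plates (median -0.89, beside -0.04), by the edgeR fit described with the comparisons. Over all tested miRNAs, that fit called 115 of 534 lower in HDM than in pellets and 86 of 534 lower than on plates. The 4 leukocyte markers were not at 0: they summed to 1379 to 2949 CPM in HDM, 2756 to 2795 in pellets and 2458 to 4013 on plates, nearly all from miR-142-5p and miR-142-3p, while miR-223-3p was at most 1.43 CPM. The 3 stromal and endothelial markers in the table summed to 21.0 to 34.6 CPM in HDM, 96.6 to 163 in pellets and 53.8 to 130 on plates, so HDM was below all cell libraries. The 3 muscle markers summed to 4.86 to 13.3 CPM in HDM, 24.0 to 95.7 in pellets and 7.17 to 19.9 on plates, and the 2 neural markers to 17.5 to 48.6, 38.9 to 47.9 and 12.1 to 43.9 CPM. Erythroid markers reached at most 8.88 CPM and the liver marker 0.831 CPM. The part of these markers in the results was not tested.

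hsa-miR-320a-3p was the most abundant member, at a median rank of 50.5 among all entries, and was highest in HDM. It stood at 5467 (HF6) and 6059 CPM (HF7) in unfiltered HDM and at 5501 and 5439 CPM in filtered HDM. On the plates it ran from 2588 to 3083 CPM with a median of 2744 (n = 6). The pellets differed most between HF numbers, with 3043 CPM in HF6 and 1302 CPM in HF7, the latter from 408 counts. The lowest HDM library was above every pellet and plate library. Plates 1, 2 and 3 overlapped one another, as did filtered and unfiltered HDM.

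miR-484 followed another order, with the cells themselves split. It was 198 (HF6) and 233 CPM (HF7) in pellets and 325 and 318 CPM in plate 1. Plate 2 held 682 and 757 CPM and plate 3 held 610 and 634 CPM. HDM ranged from 630 to 762 CPM (n = 4), inside the range of plates 2 and 3 apart from its highest library, filtered HF6 HDM. Pellets, plate 1, and plates 2 and 3 thus formed 3 levels with no overlap, the lowest in the pellets.

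Among the minor members, miR-320b and miR-320c were highest in HDM and lowest on plates 2 and 3 in CPM of library totals. miR-320b was 313 to 351 CPM in HDM, 242 and 253 CPM in plate 1, 264 and 185 CPM in the HF6 and HF7 pellets, and 149.7 to 198 CPM on plates 2 and 3. miR-320c was 154 to 173 CPM in HDM, 131 and 141 CPM in plate 1, 146 and 109.8 CPM in the pellets, and 70.2 to 94.9 CPM on plates 2 and 3. For both, plate 1 and the pellets overlapped, and HDM was above all cell libraries on this scale. With the TMM scaling used for the tests below, the HF6 pellet was above HDM for both. It held 368 CPM of miR-320b against 266 to 312 in HDM, and 203 CPM of miR-320c against 133 to 147. Plate 1 was then also above HDM for miR-320c, at 148 and 154 CPM.

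miR-320d, the shorter entry, was highest in the pellets, at 90.9 CPM in HF6 and 81.7 CPM in HF7. Plate 1 held 66.7 and 73.8 CPM, and plates 2 and 3 held 18.9 to 26.7 CPM. HDM held 50.4 to 56.2 CPM in 3 libraries and 86.5 CPM in HF7 unfiltered HDM, where the value rests on 18 counts and has a Wilson 95% interval that spans the pellets. Without that library, HDM lay between plate 1 and plates 2 and 3.

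miR-320e was near the limit of detection. Its highest count was 12, and it had none in the HF7 pellet, HF7 unfiltered HDM and HF6 plate 3. In these libraries 3 counts, the limit that a count of 0 allows, correspond to 9.57, 14.6 and 2.41 CPM. No fold change is given for it, and it was not called in the 6 comparisons; of all fits only that of plate 1 against plates 2 and 3 without HF6 plate 1 called it, leaving 12 counts in 1 plate 1 library.

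**Figure D1:**
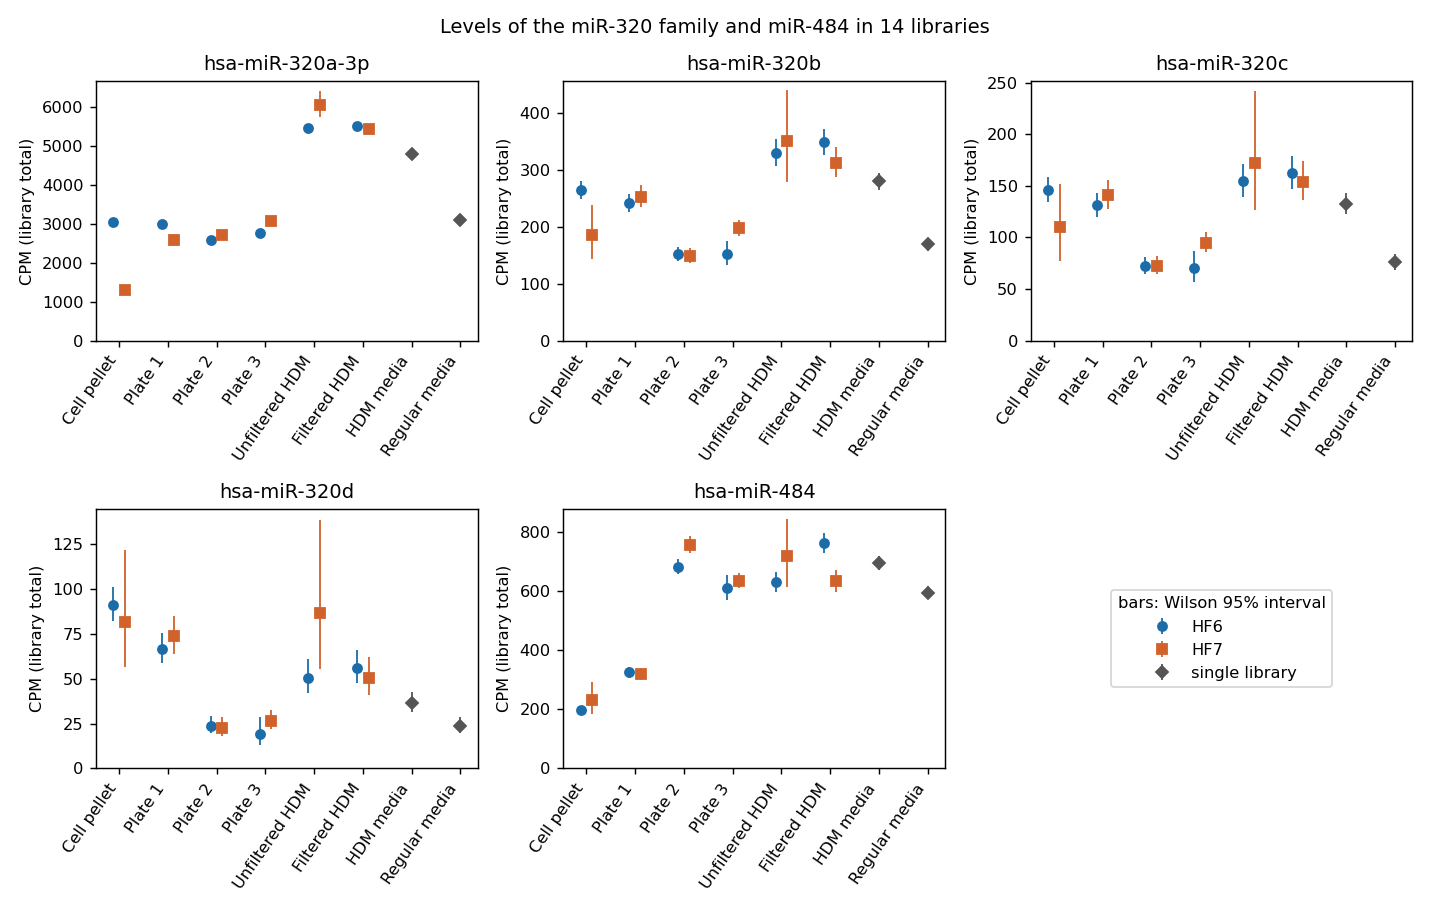
CPM of 5 members in each of the 14 libraries, 1 panel per miRNA with axes from 0; circles are HF6, squares HF7 and diamonds single libraries, and bars are Wilson 95% intervals. miR-320a-3p separates HDM (5439 CPM or more) from cells (3083 CPM or less), whereas miR-484 is lowest in pellets and plate 1 and miR-320d is highest in the pellets.

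The makeup of the family was nearly fixed in most libraries and shifted in the pellets and plate 1. miR-320a-3p made up 90.6% to 91.99% of the family in 10 libraries, namely HDM, plates 2 and 3 and both media. It made up 85.8% and 77.6% in the HF6 and HF7 pellets and 87.2% and 84.6% in plate 1. miR-320d took 0.629% to 1.297% of the family in the 10 libraries and 1.94% to 4.87% in the pellets and plate 1. In the same way miR-320b took 5.03% to 5.82% against 7.03% to 11.03%, and miR-320c took 2.27% to 2.79% against 3.82% to 6.54%. The ranges of the 3 minor members did not overlap between these sets of libraries. The sets were named after their values were seen, so this separation is no test. For miR-320d, HF7 unfiltered HDM (1.297%) had a Wilson 95% interval of 0.831% to 2.064%, which took in the HF6 plate 1 share of 1.94%. The ratio of miR-320a-3p to miR-320d was 33.5 and 15.9 in the pellets, 44.97 and 35.1 in plate 1, 70.0 to 108 in HDM and 108 to 146 on plates 2 and 3.

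The sum of the family, which does not depend on how reads were divided within it, was 5960 to 6669 CPM in HDM, 2837 to 3438 CPM on the plates and 3546 and 1678 CPM in the HF6 and HF7 pellets. In CPM of library totals, the HDM libraries were above all cell libraries in this sum too. The sum was not formed with TMM scaling. On that scale miR-320a-3p, its largest part, was 4612 to 5201 CPM in HDM against 4237 CPM in the HF6 pellet.

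**Figure D2:**
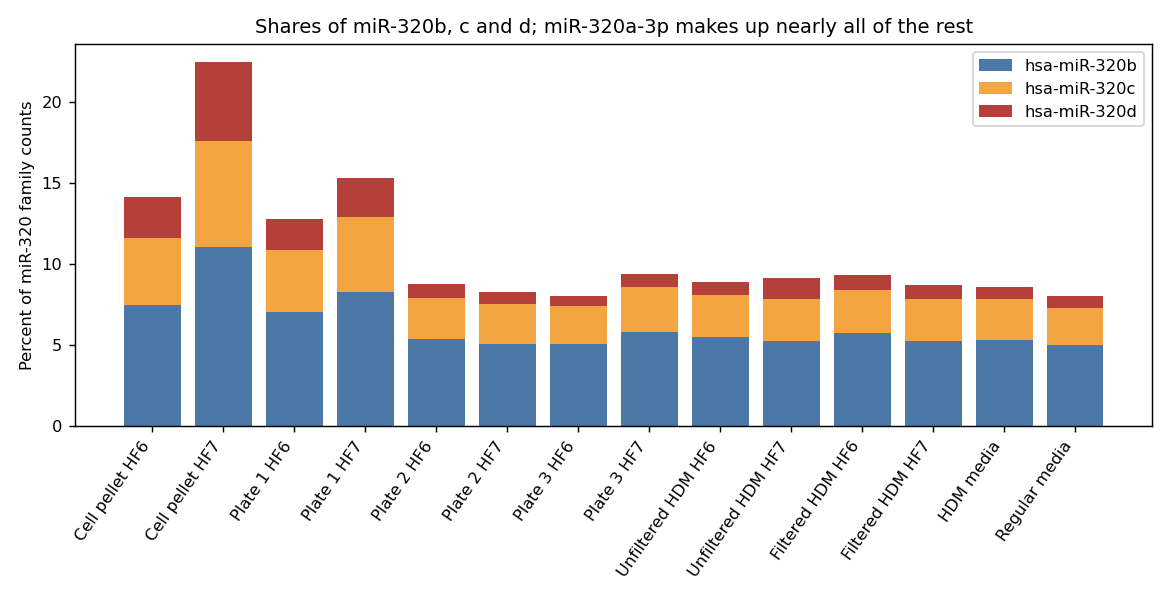
Share of the miR-320 family counts held by miR-320b, miR-320c and miR-320d in each library, as stacked bars in percent from 0; almost all of the remainder is miR-320a-3p. The minor members together take more of the family in the 2 pellets and the 2 plate 1 libraries than in the other 10.

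Differences were tested with edgeR's quasi-likelihood test on all 534 miRNAs that passed a filter on low counts, with TMM scaling and Benjamini-Hochberg adjustment over all of them; all 6 members passed. Fold changes are log2 values with the standard error of the fit. They are relative to the other miRNAs of a library, since no added RNA standard is in the table, and fewer cells of a kind cannot be told apart from less RNA per cell. Scaling by total counts in place of TMM moved the median over all miRNAs from 0.05 to 0.59 for HDM against pellets, from -0.09 to -0.42 for pellets against plates and from -0.02 to -0.21 for plate 1 against plates 2 and 3, on the log2 scale. The comparisons share libraries and are therefore not independent of one another.

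HDM against cell pellets asks which members were relatively more or less abundant in HDM than in pelleted cells. miR-484 was 2.25-fold higher in HDM (log2 1.17 ± 0.21, adjusted p = 0.000468, edgeR), with every HDM library above both pellets. miR-320d was 2.24-fold lower (log2 -1.16 ± 0.24, adjusted p = 0.00121). Thus 2 of 6 members were called, where 39.7% of all tested miRNAs were. miR-320a-3p had a log2 difference of 0.79 ± 0.31 and missed the threshold (adjusted p = 0.0521). After TMM scaling its HDM libraries stood at 4612 to 5201 CPM against 4237 CPM in the HF6 pellet and 1429 CPM in the HF7 pellet. miR-320b and miR-320c had log2 differences of 0.01 ± 0.24 and -0.25 ± 0.24, neither called.

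The miR-320a-3p value in this comparison rested on 1 pellet library. Its log2 difference was 0.37 without the shallow HF7 pellet and 1.85 without the HF6 pellet, and it was called at 0.87 with DESeq2 and at 1.36 with total counts. In all, 17 of the 24 alternatives called it. The miR-320d call was lost without the HF6 pellet (log2 -0.80, adjusted p = 0.0945) and when plates were grouped by HF number rather than by plate number (adjusted p = 0.195).

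HDM against plate cells showed the major member and its close relatives higher in HDM than the mean over the plate groups. The miR-320a-3p difference was 1.74-fold (log2 0.80 ± 0.22, adjusted p = 0.0137, edgeR). miR-320b was higher by a log2 of 0.63 ± 0.18 (adjusted p = 0.0149), miR-320c by 0.57 ± 0.17 (adjusted p = 0.0225) and miR-320d by 0.56 ± 0.18 (adjusted p = 0.0319). So 4 of 6 members were called, all higher, where 31.1% of all tested miRNAs were called in either direction and 15.0% higher in HDM. These 4 entries share divided reads and are not separate pieces of evidence. In CPM of library totals, every HDM library was above every plate library for miR-320a-3p, miR-320b and miR-320c but not for miR-320d. After TMM scaling this held for miR-320a-3p alone. For miR-320b, HF7 unfiltered HDM (266 CPM) was then below plate 1 (272 and 277 CPM). For miR-320c, all HDM libraries (133 to 147 CPM) were below plate 1 (148 and 154 CPM). The values of miR-320b, miR-320c and miR-320d average over plates that differed, and no fit against plate 1 alone was run. For miR-320d, 3 of the 4 HDM libraries were below plate 1 in CPM and all were above plates 2 and 3. Its difference against plates 2 and 3 only was 1.15 ± 0.21. Against those plates only, miR-320a-3p, miR-320b and miR-320c stood at 0.86, 0.90 and 0.91.

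miR-484 was not called against the plates (log2 0.17 ± 0.15, adjusted p = 0.409). Its difference from plates 2 and 3 alone was -0.12, and total-count scaling gave a called 0.38. All 4 calls of the family were lost when plates were grouped by HF number, which adds the spread between plate numbers to the error: the log2 differences of miR-320a-3p, b, c and d were then 0.79, 0.58, 0.49 and 0.34, with adjusted p = 0.0562 for the first. They were also lost with unfiltered HDM alone, at 0.76, 0.58, 0.53 and 0.60 (lowest adjusted p = 0.088). Over all 534 tested miRNAs, calls fell from 166 to 49 with plates grouped by HF number and to 53 with unfiltered HDM alone. Without filtered HF6 HDM only miR-320a-3p was called, and with no filter on low counts likewise 1 of 6. The miR-320c call was also lost without unfiltered HF6 HDM (adjusted p = 0.0682). That of miR-320d was lost in 8 of the 12 fits that left out 1 library, and held without either pellet, unfiltered HF6 HDM or HF7 plate 3.

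Cell pellets against plate cells compares the same line collected under different labels. miR-320d was 3.29-fold higher in the pellets (log2 1.72 ± 0.21, adjusted p = 2.62e-05, edgeR) and miR-484 was 1.999-fold lower (log2 -0.999 ± 0.203, adjusted p = 0.00175). miR-320c was higher by 0.82 ± 0.22 (adjusted p = 0.00887) and miR-320b by 0.63 ± 0.22 (adjusted p = 0.0407). In all, 4 of 6 members were called, against 32.6% of all tested miRNAs. The plates pooled here differ, and against plates 2 and 3 only the log2 differences were 2.31 ± 0.23 for miR-320d, 1.16 for miR-320c, 0.89 for miR-320b and -1.29 for miR-484. The miR-320a-3p difference was 0.01 ± 0.28 and turned with the pellet left out: 0.49 without the HF7 pellet and -1.02 without the HF6 pellet, each called.

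The calls for miR-320b and miR-320c in pellets were lost with total-count scaling (log2 0.30 and 0.49), with limma-voom, with no low-count filter and without the HF6 pellet (0.06 and 0.29). The miR-320b call was also lost on leaving out any 1 of the 10 HDM and plate libraries (log2 0.52 to 0.60). It was lost too when only the compared libraries were fitted, and in all 7 of the 23 alternatives called miR-320b. With plates grouped by HF number none of the 4 was called, the lowest adjusted p being 0.0691 for miR-484.

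Plate 1 against plates 2 and 3 is a contrast within the plate cells, made because earlier results of these data had shown plate 1 apart. miR-320d was 3.40-fold higher in plate 1 (log2 1.76 ± 0.22, adjusted p = 4.45e-05, edgeR), miR-320c was 1.995-fold higher (log2 0.996 ± 0.221, adjusted p = 0.00389) and miR-320b was 1.74-fold higher (log2 0.80 ± 0.23, adjusted p = 0.0183). miR-484 was 1.82-fold lower (log2 -0.87 ± 0.20, adjusted p = 0.00565). These 4 of 6 members compare with 26.0% of all tested miRNAs called. miR-320a-3p was not called, at 0.20 ± 0.29. Both plate 1 libraries were above all 4 libraries of plates 2 and 3 for miR-320b, miR-320c and miR-320d, and below all 4 for miR-484. How many of all tested miRNAs separate in this way, here or in the separations named above, was not counted.

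In that contrast, the miR-320d call held in every fit that was run, with the adjusted p at most 0.0017. miR-484 lost its call without HF6 plate 1 (log2 -0.92, adjusted p = 0.065) or HF7 plate 1 (log2 -0.86, adjusted p = 0.0768), and without HF7 plate 1 only miR-320d was called. The miR-320b call was lost without filtered HF7 HDM, either plate 1 library, either plate 2 library or HF6 plate 3 (log2 0.68 to 0.79), and with no low-count filter (log2 0.65, adjusted p = 0.143).

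**Figure D3:**
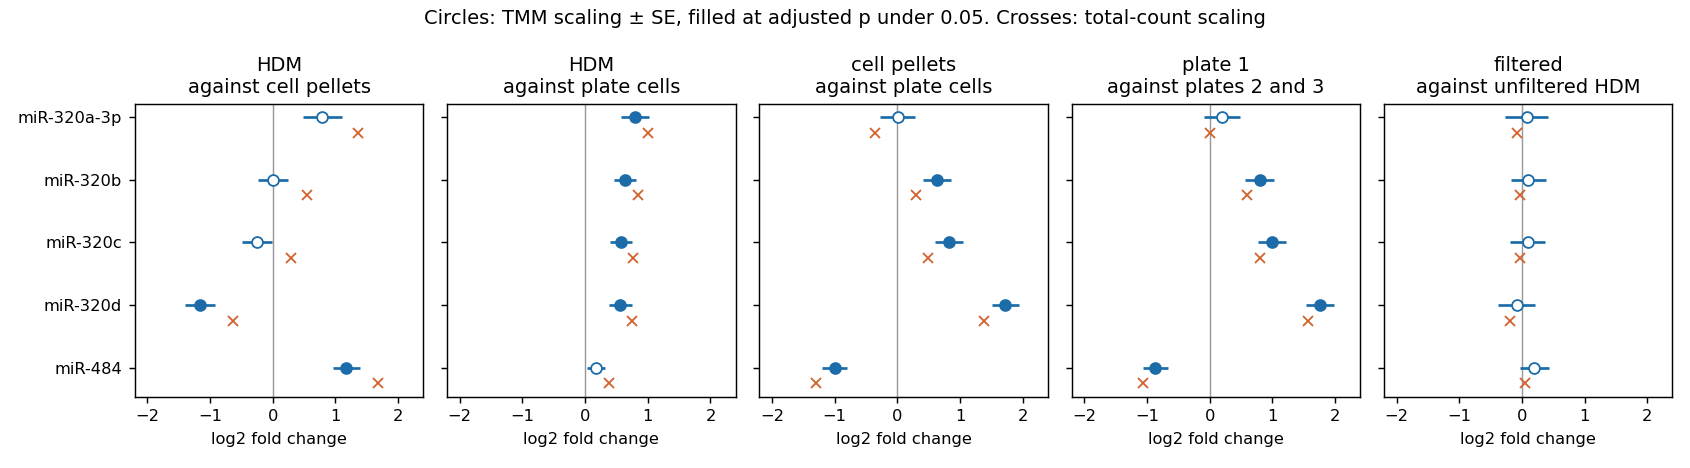
Log2 fold changes of 5 members in 5 comparisons; circles are the TMM fit with bars of 1 standard error, filled where the adjusted p is under 0.05, and crosses are total-count scaling. miR-320d and miR-484 lie on opposite sides of 0 in the comparisons with pellets and of plate 1, while miR-320a, b, c and d lie close together for HDM against plates.

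Filtered and unfiltered HDM were compared to see whether the filter step changed the members, and HF7 with HF6 to see whether the HF number did. No member was called between filtered and unfiltered HDM by edgeR, DESeq2 or limma-voom, and 0 of 6 had an unadjusted p under 0.05. The call rate over all miRNAs was 0.562%. The log2 difference was 0.08 ± 0.34 for miR-320a-3p and 0.20 ± 0.23 for miR-484. An interval of 2 standard errors reaches from -0.61 to 0.76 for the former and from -0.26 to 0.66 for the latter, so differences of such size could have been missed. HF7 against HF6, with the material as a covariate, also called 0 of 6 members by the same 3 tools, with 0 at an unadjusted p under 0.05 and a call rate of 0.0% over all miRNAs. There edgeR had 40 of 534 miRNAs at an unadjusted p under 0.05, and DESeq2 called 1. The largest absolute value among the 5 members other than miR-320e was for miR-320a-3p, -0.27 ± 0.19.

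The single media libraries allow no test. In HDM media, miR-320a-3p stood at 4805 CPM, between the HDM libraries and the cells. In regular media it was 3095 CPM, just above the highest plate. The ratio between the media was 1.55 for miR-320a-3p, with an exact 95% counting interval of 1.52 to 1.58. It was 1.65 (1.52 to 1.81) for miR-320b, 1.74 (1.53 to 1.98) for miR-320c and 1.54 (1.22 to 1.97) for miR-320d. miR-484, at 694 CPM in HDM media and 594 CPM in regular media, had the smaller ratio of 1.17 (1.11 to 1.23). In regular media, miR-320b, miR-320c and miR-320d (169, 76.3 and 23.7 CPM) all lay within the range of plates 2 and 3.

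The ratio of both main members was lowest on plates 2 and 3 among the replicated materials. miR-320a-3p exceeded miR-484 by 3.59 to 4.86 times on plates 2 and 3, by 7.22 to 8.68 times in HDM and by 9.23 and 8.14 times in plate 1. The pellets stood at 15.4 (HF6) and 5.59 (HF7), on either side of HDM and plate 1. The HF7 pellet value rests on 408 counts of miR-320a-3p and 73 of miR-484. HDM media stood at 6.92 and regular media at 5.21, the latter close to plates 2 and 3. These ratios are unaffected by the scaling between libraries.

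**Figure D4:**
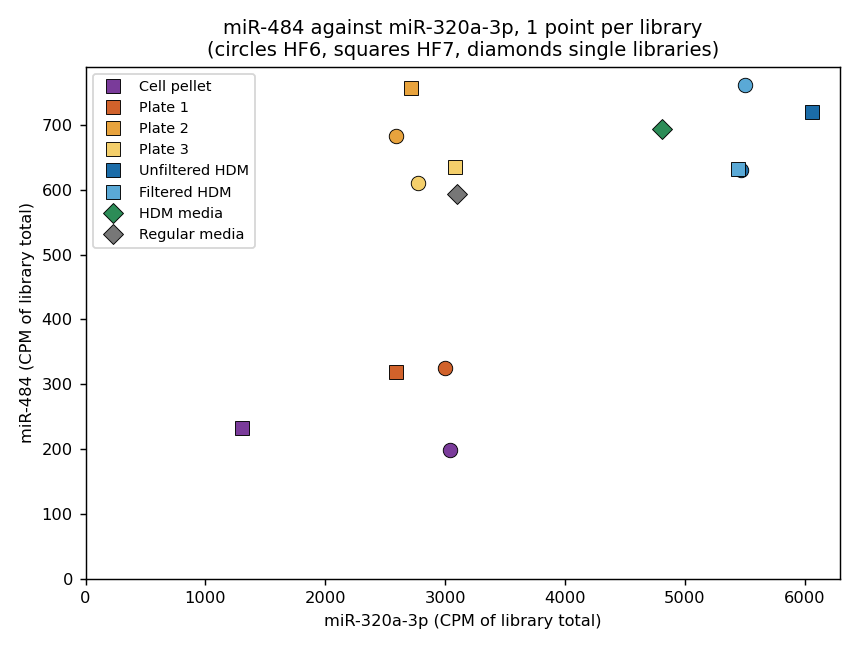
miR-484 against miR-320a-3p, both in CPM on axes from 0, with 1 point per library; color gives the material, circles HF6, squares HF7 and diamonds single libraries. Plates 2 and 3 lie in the range of HDM or close to it in miR-484 but hold less miR-320a-3p, and plate 1 lies in the range of the other plates in miR-320a-3p but holds less miR-484.

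Across the 14 libraries the members did not vary as a unit. On log2 (CPM + 1), Pearson's r was 0.97 between miR-320b and miR-320c, 0.75 between miR-320a-3p and miR-320b, 0.10 between miR-320a-3p and miR-320d and -0.62 between miR-320d and miR-484. These are descriptions over libraries that share materials, and for a to d also divided reads.

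Among the 279 miRNAs that averaged 20 CPM or more, those most like miR-320a-3p in profile were miR-671-5p (r = 0.94), miR-423-5p (0.92), miR-222-3p (0.92), miR-221-3p (0.92) and miR-95-3p (0.89). miR-671-5p, for example, was 188 to 270 CPM in HDM, 100.4 to 130 on plates 2 and 3, 80.3 and 102 in plate 1, and 22.3 and 96.9 in the pellets. Those most like miR-484 were miR-1301-3p (0.97), miR-23b-5p, miR-501-3p (both 0.96), miR-501-5p and miR-92a-1-5p (both 0.95). miR-501-5p, for example, was 22.3 and 42.6 CPM in pellets, 45.3 and 46.9 in plate 1, 122 to 200.01 on plates 2 and 3 and 184 to 231 in HDM.

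The profile of miR-320d was most like those of miR-152-3p (0.95), miR-375-3p (0.90), miR-146b-5p (0.86), miR-1246 (0.85) and miR-9-5p (0.85). miR-9-5p is one of the 2 neural markers checked, and their part in these profiles was not tested. For miR-320b and miR-320c the top 5 shared miR-584-5p (0.90 and 0.83), let-7c-5p (0.89 and 0.81) and miR-200c-3p (0.86 and 0.87), an epithelial marker. miR-423-5p (0.83) and miR-29c-5p (0.82) completed the list for miR-320b, and miR-193b-3p (0.84) and miR-574-3p (0.80) that for miR-320c. For miR-320e no r exceeded 0.58 (miR-191-5p), on too few counts to read.

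Reads from the other arm of the miR-320a hairpin were almost absent. miR-320a-5p had 13 counts over the 14 libraries, with 0 in 9 of them, against 140280 for miR-320a-3p. This is 0.00927% of both arms, with an exact 95% interval of 0.00493% to 0.0158%. Entries that share a seed with a member were also rare: miR-4429, with the seed of miR-320a to d, had at most 2 counts in a library, miR-3155a, with the seed of miR-484, at most 5, and miR-3155b none when rounded. Nearly all reads with these seeds thus belonged to the members.

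Mirtrons, which are spliced out of short introns, are another kind of miRNA made without Drosha. Of 16 on the list 15 are in the table and 5 were abundant enough to test. Their sum was 22.3 to 28.5 CPM in pellets, 83.5 to 98.8 CPM in HDM and 51.97 to 114 CPM on plates. Of the 5, only miR-877-5p was called, where 39.7% of all tested miRNAs were called for HDM against pellets and 32.6% for pellets against plates. It was higher in HDM than in pellets (log2 1.40 ± 0.29, adjusted p = 0.00118, edgeR) and lower in pellets than on plates (log2 -1.07 ± 0.27, adjusted p = 0.00759). It held 12.8 and 18.0 CPM in pellets and 63.1 to 70.9 CPM in HDM. The median log2 difference over the 5 was 1.40 for HDM against pellets and 0.03 for HDM against plates, beside 0.05 and -0.04 over all tested miRNAs. miR-877-3p, miR-1226-3p and miR-1237-3p were below 17 CPM everywhere and were not called in any comparison.

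Entries that overlap snoRNA genes, which also have precursors of other origin, moved in both directions. Of 11 listed 7 are in the table and 5 were tested. For HDM against pellets 1 was called higher and 3 lower, beside 39.7% of all tested miRNAs in either direction, with a median log2 of -1.24 against 0.05 over all tested miRNAs. miR-1248 was higher in HDM (log2 1.84 ± 0.59, adjusted p = 0.0204, edgeR), at 753 to 1074 CPM against 269 and 25.5 in pellets. miR-664a-3p and miR-1291 were lower, by -1.24 ± 0.24 and -1.77 ± 0.31, and both were higher in plate 1 than in plates 2 and 3 (0.93 ± 0.23 and 1.31 ± 0.29). For HDM against plates, none of the 5 snoRNA entries and none of the 5 mirtrons was called by edgeR, beside 31.1% of all tested miRNAs.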

How the data were processed

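Per the labels' protocols, the miRNeasy kit was used for RNA and libraries were made with the NEXTflex small RNA kit. The submitters' processing notes list cutadapt 2.10, Bowtie 1.3.1, FastQC and GRCh38. The authors deposited expected counts per mature miRNA, not normalized; 4.40% of values hold fractions, and the rule for reads that match several entries is not given in the sources used here. Values were rounded to whole counts for testing.

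The members and lists were chosen with earlier results of these data known. The 12 replicated libraries were fitted in edgeR 4.0.16 (TMM, filterByExpr by group, quasi-likelihood) with 1 coefficient for each of 6 materials, which leaves 6 residual degrees of freedom (common biological coefficient of variation 0.217). Plate numbers were kept as separate groups because earlier results of these data had shown plate 1 apart. This choice was therefore not made independently of the data. Grouping plates by HF number puts the difference between plates into the error, and that grouping was kept as an alternative. A call is a Benjamini-Hochberg adjusted p under 0.05 over all 534 tested miRNAs. Alternatives were DESeq2 1.42.0, limma-voom (limma 3.58.1), other scalings and filters, a block on the HF number, subsets of libraries and leaving out each library.

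Named are all members, for each the 5 miRNAs most correlated with it over 14 libraries, entries sharing bases 2 to 8, the other arm, and up to 4 leading entries of each list. Single libraries have Wilson 95% intervals and no test. Replicate pairs had a chi-square per degree of freedom of 13.3 to 126, so neither library of a pair is a copy of the other.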

Additional observations from a re-analysis of the deposited data

How the results depend on the processing

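The number of members called moved by more than 1.5 times with the processing in 3 of the 6 comparisons, and on leaving out 1 library also for plate 1 against plates 2 and 3, where no low-count filter gave 3 in place of 4. With plates grouped by HF number, 1 member was called for HDM against pellets (2 as reported), 0 for HDM against plates (4) and 0 for pellets against plates (4). Over all miRNAs, that grouping gave 123, 49 and 38 calls in the same order. Total counts as the only scaling gave 4 for HDM against pellets and 2 for pellets against plates. With no low-count filter 1 was called for HDM against plates and 2 for pellets against plates. limma-voom called 2 for pellets against plates, and unfiltered HDM alone called 0 against plates. Leaving out 1 library gave 1 to 4 called for HDM against plates and 1 to 4 for plate 1 against plates 2 and 3. The cause of these changes was not tested. Grouping plates by HF number adds the spread between plate numbers to the error by its construction, but the log2 differences moved too. For HDM against plates, that of miR-320a-3p went from 0.80 to 0.79 and that of miR-320d from 0.56 to 0.34. Over all miRNAs, the calls ranged from 123 to 264 for HDM against pellets (212 as reported), 49 to 226 for HDM against plates (166), 38 to 242 for pellets against plates (174), 60 to 216 for plate 1 (139), 0 to 14 for filtered against unfiltered HDM (3) and 0 to 1 for HF number (0).

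Directions that turned, as log2 differences with the cause not tested, were all of values not called in the reported fit. For HDM against pellets, miR-320b was -0.067 with limma-voom, -0.045 with unfiltered HDM alone, -0.12 without the 2 shallow libraries and -0.16 to 0.60 leaving out 1 library, and miR-320c was 0.28 with total counts and -0.37 to 0.31 leaving out 1 library. For HDM against plates, miR-484 was -0.12 with plates 2 and 3 only. For pellets against plates, miR-320a-3p was -0.0332 with DESeq2 and -0.0313 with RLE size factors, -0.15 with a minimum of 50 counts in 2 libraries, -0.24 with no filter, -0.0030 with plates grouped by HF number, -0.059 with the replicate block, -0.35 with total counts and -1.02 to 0.49 leaving out 1 library. For filtered against unfiltered HDM, the minimum of 50 counts gave -0.065 for miR-320a-3p, -0.033 for miR-320b and -0.039 for miR-320c, and total counts gave -0.075, -0.032 and -0.033. With only the compared libraries miR-320a-3p was -0.0011. miR-320d was 0.20 without the 2 shallow libraries and -0.40 to 0.094 leaving out 1 library.

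For HF7 against HF6, leaving out the 2 shallow libraries gave 0.0087 for miR-320a-3p, 0.071 for miR-320b and 0.12 for miR-320c. miR-320c was 0.036 with DESeq2, 0.032 with RLE size factors, 0.057 with a minimum of 50 counts, 0.050 with limma-voom and 0.044 with total counts. miR-484 was 0.0282 with DESeq2 and 0.0334 with RLE size factors, 0.057 with a minimum of 50 counts and 0.050 with total counts, and miR-320d was -0.072 without the material as a covariate. Leaving out 1 library gave -0.33 to 0.0018 for miR-320a-3p, -0.18 to 0.046 for miR-320b, -0.11 to 0.10 for miR-320c and -0.076 to 0.015 for miR-484.

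With a replicate block on the HF number, 3 members were called for HDM against pellets, miR-320a-3p being added at a log2 of 0.86 (adjusted p = 0.0253), and 4, 4, 0 and 4 for HDM against plates, pellets against plates, filtered against unfiltered HDM and plate 1. The HF7 minus HF6 differences correlated by -0.224 to 0.357 between materials (median 0.031, over 0.1 in 6 of 15 pairs of materials). The reported fit of the materials did not treat the numbers as pairs. Whether samples of 1 number share a source is not given by the labels. The median miR-320a-3p share of the family was 90.97% with deposited values and 90.95% with rounded counts. Depth limits miR-320e throughout, and miR-320d in the HF7 pellet (26 counts) and HF7 unfiltered HDM (18 counts).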
